A study of Homo sapiens with 17 samples.

Results

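The genes described here encode the proteasome, its activators and the chaperones that assemble it, measured by RNA sequencing in Ishikawa cells, a human cell line from an endometrial adenocarcinoma that is used as a model of the endometrial epithelium. They are the protein-coding genes of the count table whose symbol begins with PSMA, PSMB, PSMC, PSMD, PSME or PSMG, without PSMB8 and PSMB9, and they number 46 of the 60662 genes counted. By role they are 17 genes of the 20S core, 17 of the 19S regulatory particle, 4 activators, 7 assembly chaperones and PSMC3IP, which meets the naming rule only and encodes a factor of meiotic recombination, not a proteasome subunit. All 17 libraries came from cultures of this 1 cell line harvested after 24 h. The labels put 11 of them in groups: 3 controls without treatment, 3 vehicle controls (vehicle named Nap, with ethanol at 70%), 2 cultures with Nap only, and 3 with the vehicle and progesterone (P4). The labels do not say what Nap is, and they list P4 doses of 0.1 and 1.0 mg/ml without saying which dose the sequenced cultures received. The study's text names the highest dose but in a different unit from the labels, so the dose is not given here. The other 6 libraries carry PSAT1 in their labels, but title and column name contradict each other on whether P4 was present, so they entered no comparison. The titles number the libraries of a group as biological replicates without saying whether they came from separate passages of the line, so the p-values measure the spread between these cultures, which may be technical.

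The proteasome is the protease that degrades proteins tagged with ubiquitin. Its 20S core is a barrel in which rings of alpha subunits gate the entrance and rings of beta subunits hold the catalytic sites, while the 19S particle, made of a base with ATPases and a lid, recognises the ubiquitin chain, removes it and unfolds the substrate. Alternative caps (the PSME activators) open the core in other settings, and dedicated chaperones build the rings and the base. In mammalian cells the transcription factor NFE2L1 is known to drive proteasome genes together when proteasome activity is limiting.

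The total count per library was 12712177 to 19704493 in the controls, 4999521 to 13403346 in the vehicle controls, 11941642 to 14111838 in Nap only and 10786880 to 14095023 under P4, with the lowest total in vehicle control replicate 1. The mitochondrial ribosomal RNA MT-RNR2 took 20.2% to 27.1% of the counts. Summed levels of the epithelial markers EPCAM, CDH1, KRT8, KRT18, KRT19 and MUC1 were 929 to 1370 normalised CPM (counts relative to library size, scaled by trimmed-mean-of-M-values factors, TMM), with 929 to 1079 under P4 and 1171 to 1173 in the vehicle controls. The endometrial epithelial markers PAX8, SOX17, ESR1 and PGR summed to 320 to 366 under P4 and 443 to 528 in the other groups. Endothelial markers summed to at most 1.54 and leukocyte markers to at most 1.47. The stromal list (COL1A1, COL3A1, DCN, LUM) summed to 90.9 to 156 in the controls, 68.5 to 90.8 in the vehicle controls and 65.9 to 76.2 under P4, with DCN at 3 counts or fewer in every culture, and the part of these markers in the results below was not tested. Since RNA was measured in bulk, fewer cells of a kind and less RNA per cell cannot be told apart.

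Transcripts of 22 of the 43 tested proteasome genes were called lower in P4-treated cells against each of the 3 reference groups (51.2%), beside 19.7% of protein-coding genes. These 3 comparisons share the same P4 cultures. Summed over the 46 genes, the level was 3672 ± 82.8 normalised CPM in the controls (SD, n = 3), 3606 ± 265 in Nap only (n = 2), 3208 ± 26.5 in the vehicle controls (n = 3) and 2648 ± 80.4 under P4 (n = 3). As a share of all counts, this was 0.379% ± 0.0231, 0.383% ± 0.0304, 0.328% ± 0.00394 and 0.246% ± 0.00138 in the same order. The highest P4 culture, at 2726, was below the lowest vehicle control, at 3178, and the vehicle controls were in turn all below the 3 controls and both Nap only cultures.

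P4 against vehicle control sets the hormone against the vehicle, with ethanol named in the labels for the vehicle control only. Of the 46 genes, 43 had enough counts to be tested, and edgeR's quasi-likelihood test called 23 of them lower and 1 higher at a Benjamini-Hochberg adjusted p under 0.05, with 19 not called. The background in this comparison was large: 27.8% of the 12854 protein-coding genes tested were called lower and 30.4% higher. The members stood at 53.5% lower, their log2 fold changes ran from -0.83 to 0.31, and the median of these was -0.30, against -0.01 over all genes tested. The P4 cultures lay below every vehicle control in 23 of the 43 members (53.5%), and in 30.4% of the protein-coding genes tested. The effects were moderate, since no member reached a 2-fold difference between P4 and vehicle control. Without P4 replicate 1 the number called higher went from 1 to 5, with PSMD13, PSMD6, PSME4 and PSMG1 joining PSMG2 at log2 fold changes of 0.29, 0.24, 0.24 and 0.20, while the number called lower stayed at 23.

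**Figure D1:**
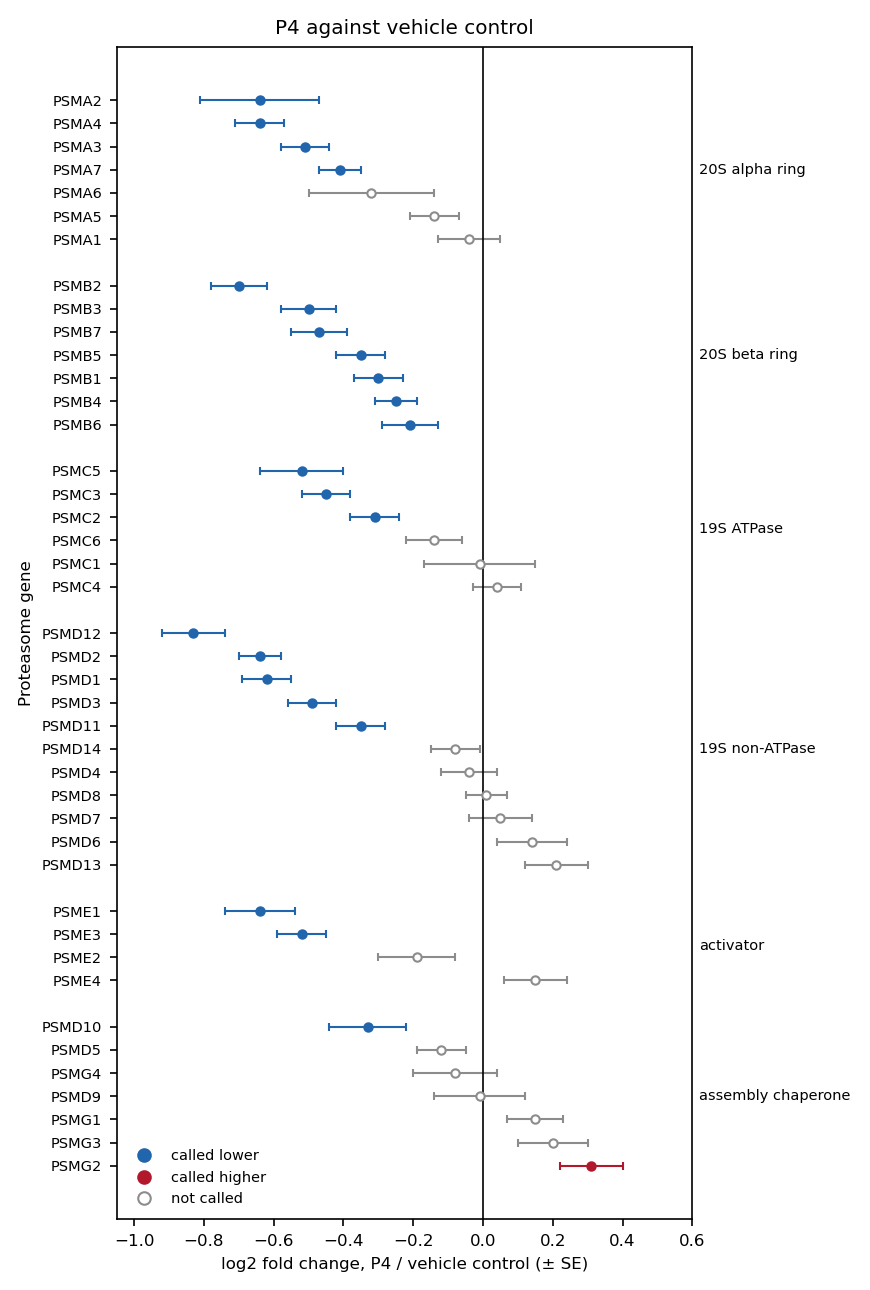
Log2 fold change of each tested proteasome gene, P4 against vehicle control (x axis, error bars are the standard error of the edgeR fit, 3 cultures a group), grouped by role on the y axis, with filled points for genes called at adjusted p under 0.05. All 7 tested beta-ring genes lie to the left of 0, from -0.70 to -0.21, while the assembly chaperones spread from -0.33 to 0.31.

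Windows of 300 bases at the start sites (250 before and 50 after, RefSeq, GRCh38.p14) were searched for 40 of the 46 genes, in 48 windows, and those of PSMA7, PSMB1, PSMB6, PSMB7, PSMD4 and PSMG3 were not analysed here. The letters TGACNNNGC, the core of the antioxidant response element through which NFE2L1 and NFE2L2 bind DNA, were searched on both strands, separately from CCAAT, the motif bound by NF-Y. TGACNNNGC was found in 14 of the 48 member windows (29.2%) and in 4687 of the 35116 windows of all genes (13.3%). Of the 14 genes that hold it, 7 were called lower under P4 against vehicle control, 1 higher and 6 were not called. CCAAT was found in 21 of the 48 member windows (43.8%), beside 34.6% of all windows, and 13 of the 20 genes with it were called lower, as were 19 of all 40 genes with a window. The 40 include PSMA8, PSMB10 and PSMB11, which had too few counts to be tested, and the 20 include PSMB11. A match is a run of letters and not a shown binding site. The windows printed here are those of PSMD12, the gene with the lowest fold change, which holds the element, of PSMB2, the next lowest, which does not, and of PSMG2 and PSME4, which hold it and were not lower. They are given 5′ to 3′ on the strand of the gene, with the TGACNNNGC match or its reverse complement in capitals. PSMD12 is at chr17:67366528-67366827 (minus strand), PSMB2 at chr1:35641477-35641776 (minus strand), PSMG2 at chr18:12658488-12658787 (plus strand) and PSME4 at chr2:53970944-53971243 (minus strand), and the match begins at base -165, -39 and -34 from the start in PSMD12, PSMG2 and PSME4.
PSMD12: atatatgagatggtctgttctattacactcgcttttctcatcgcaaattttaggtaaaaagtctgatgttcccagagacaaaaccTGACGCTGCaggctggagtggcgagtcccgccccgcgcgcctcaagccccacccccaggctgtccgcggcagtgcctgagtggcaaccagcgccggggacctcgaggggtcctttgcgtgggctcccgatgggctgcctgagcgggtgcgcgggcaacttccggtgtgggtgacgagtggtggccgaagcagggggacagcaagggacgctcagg
PSMB2: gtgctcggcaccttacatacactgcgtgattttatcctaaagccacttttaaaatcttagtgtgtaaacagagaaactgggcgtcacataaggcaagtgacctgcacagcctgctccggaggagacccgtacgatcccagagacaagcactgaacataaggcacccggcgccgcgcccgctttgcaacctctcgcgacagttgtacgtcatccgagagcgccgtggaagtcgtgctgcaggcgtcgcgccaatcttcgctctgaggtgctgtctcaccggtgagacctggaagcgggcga
PSMG2: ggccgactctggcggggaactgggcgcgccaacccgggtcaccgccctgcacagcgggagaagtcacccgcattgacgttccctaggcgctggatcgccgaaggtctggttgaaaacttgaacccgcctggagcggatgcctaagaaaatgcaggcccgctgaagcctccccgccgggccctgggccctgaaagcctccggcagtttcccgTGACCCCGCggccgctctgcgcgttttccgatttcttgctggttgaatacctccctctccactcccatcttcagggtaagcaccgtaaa
PSME4: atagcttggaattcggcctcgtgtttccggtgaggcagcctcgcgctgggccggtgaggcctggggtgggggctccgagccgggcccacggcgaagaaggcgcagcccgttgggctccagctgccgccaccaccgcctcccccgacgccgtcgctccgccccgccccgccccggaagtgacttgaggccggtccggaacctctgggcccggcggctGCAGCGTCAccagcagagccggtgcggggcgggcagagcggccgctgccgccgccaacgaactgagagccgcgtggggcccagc

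Most genes of the 20S core were lower. Its summed level was 1349, 1344 and 1325 normalised CPM in the controls, 1398 and 1232 in Nap only, 1056, 1090 and 1074 in the vehicle controls and 846, 800 and 823 under P4. The groups P4 and vehicle control did not overlap, and neither did vehicle control and control. Of the 14 core genes tested, 0 were called higher under P4 against vehicle control, with a median log2 fold change of -0.38. In the same comparison 11 were called lower (78.6%), beside 27.8% of protein-coding genes. The beta ring accounted for 7 of 7 and the alpha ring for 4 of 7.

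PSMA4, an alpha-ring subunit, measured 197, 192 and 190 normalised CPM in the controls, 205 and 177 in Nap only, 157, 159 and 157 in the vehicle controls and 110, 96.8 and 99.3 under P4. Every P4 culture was below every vehicle control, with a log2 fold change of -0.64 (SE 0.07, edgeR adjusted p = 1.0e-05). PSMA2 had the same fold change, -0.64 (SE 0.17, adjusted p = 0.00725), with 14.7, 15.1 and 17.8 in the vehicle controls and 13.5, 9.62 and 8.16 under P4, after 23.3, 17.6 and 23.7 in the controls and a mean of 21.3 ± 3.26 in Nap only (SD, n = 2). Its P4 cultures spread more than those of PSMA4, replicate 1 lying close to the vehicle controls. Of the 75-base windows of PSMA2 transcripts, the length of the reads, 30.5% also occur in transcripts of other genes, and its 3 pseudogenes together held 847 counts over the 17 libraries against 3737 for PSMA2. PSMA2 summed with those pseudogenes kept the order of the groups, at 26.4 ± 4.13 in the controls, 19.7 ± 1.74 in the vehicle controls and 12.5 ± 2.80 under P4 (SD, n = 3 each).

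PSMA3 measured 95.3, 91.8 and 96.9 in the controls, 94.8 and 82.0 in Nap only, 78.6, 77.4 and 76.3 in the vehicle controls and 58.1, 50.8 and 55.6 under P4, a log2 fold change of -0.51 (SE 0.07, edgeR adjusted p = 1.1e-04). PSMA7, the alpha-ring gene of highest level per length, measured 122, 133 and 130 against 96.6, 97.1 and 98.8, at -0.41 (SE 0.06, adjusted p = 1.9e-04). Neither gene shares a 75-base window with another gene.

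The other 3 alpha-ring genes tested were not called against vehicle control. PSMA1 measured 48.8, 47.0 and 53.6 in the controls, 53.5 and 47.1 in Nap only, 40.4, 38.9 and 39.6 in the vehicle controls and 43.1, 36.8 and 37.0 under P4, at a log2 fold change of -0.04 (SE 0.09, edgeR adjusted p = 0.747). PSMA5 measured 88.5, 85.8 and 89.4 in the controls, 89.9 and 83.3 in Nap only, 63.5, 70.0 and 71.5 in the vehicle controls and 62.0, 64.8 and 61.9 under P4, at -0.14 (SE 0.07, adjusted p = 0.126). In both genes the vehicle controls already lay below the controls and Nap only. PSMA6 measured 8.50, 7.89 and 6.31 in the controls, 6.99 and 6.50 in Nap only, 11.5, 6.78 and 8.28 in the vehicle controls and 6.72, 7.13 and 6.56 under P4, at -0.32 (SE 0.18, adjusted p = 0.155), and its high value was in the shallowest library, vehicle control replicate 1. The 4 pseudogenes of PSMA6 together held 4987 counts against 1684 for PSMA6 itself, and the 2 together summed to 33.7 ± 3.11 in the controls, 27.9 ± 3.06 in the vehicle controls and 25.3 ± 0.589 under P4. Of the 75-base windows of PSMA6 transcripts, 12.5% also occur in transcripts of other genes. Only reads with a unique position were counted, so the level of PSMA6 is uncertain, by an amount that was not determined.

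Each tested gene of the beta ring was called lower under P4 against vehicle control, against control and against Nap only. PSMB2, a structural subunit of the ring, had the lowest fold change, at -0.70 (SE 0.08, edgeR adjusted p = 1.3e-05), with 93.0, 84.9 and 81.1 normalised CPM in the controls, 87.1 and 81.6 in Nap only, 76.2, 79.0 and 85.9 in the vehicle controls and 52.6, 47.4 and 50.5 under P4. Here the vehicle controls overlapped the controls, and the P4 cultures alone lay apart. PSMB3, another structural subunit, stepped down in both comparisons, from 90.3, 89.8 and 88.4 in the controls, with Nap only at 88.6 and 80.5, to 60.8, 68.3 and 66.8 in the vehicle controls and 49.5, 46.7 and 44.3 under P4. Its log2 fold change was -0.50 against vehicle control (SE 0.08, adjusted p = 2.2e-04) and -0.96 against control (adjusted p = 1.4e-07).

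The 3 catalytic subunits were all called lower in the 4 comparisons. PSMB5, which carries the chymotrypsin-like site that proteasome inhibitors bind, measured 86.9, 95.9 and 90.0 in the vehicle controls and 74.1, 71.2 and 72.0 under P4, at -0.35 (SE 0.07, edgeR adjusted p = 0.00114), with all 3 controls at 110. PSMB7, with the trypsin-like site, measured 76.7, 72.5 and 71.7 in the controls, 73.9 and 63.8 in Nap only, 61.2, 58.4 and 59.4 in the vehicle controls and 47.4, 39.5 and 43.5 under P4, at -0.47 (SE 0.08, adjusted p = 5.1e-04). PSMB6, with the caspase-like site, had the smallest difference of the ring, 59.3, 59.9 and 54.5 against 48.9, 50.1 and 52.2, at -0.21 (SE 0.08, adjusted p = 0.0312). The call for PSMB6 against vehicle control was lost without vehicle control replicate 1 or 2 or P4 replicate 2 or 3, with fold changes from -0.23 to -0.18, and under 3 other settings, DESeq2 (-0.18), no filter on low counts (-0.19) and all 4 groups in the fit (-0.20). PSMB1 and PSMB4, the remaining subunits, were at -0.30 (adjusted p = 0.00320) and -0.25 (adjusted p = 0.00405).

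Specialised core subunits were near or below detection. PSMA8, an alpha subunit of the testis, had 0 counts in every library, and PSMB11, a beta subunit of thymic epithelium, had 0.0762 normalised CPM in 1 P4 culture and 0 in the other labelled cultures. PSMB10, a catalytic subunit of the immunoproteasome, reached at most 0.576 in the labelled cultures, and its partners PSMB8 and PSMB9 had 0 counts in all 17 libraries. A count of 0 allows a level of up to 3 counts, which is 0.600 CPM in the shallowest library and 0.152 in the deepest, counting error only. Only uniquely placed reads were counted, and whether the sequences of PSMB8 and PSMB9 occur elsewhere in the reference was not examined.

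The 19S particle was lower in part of its genes. Its summed level was 1833, 1711 and 1737 normalised CPM in the controls, 1813 and 1642 in Nap only, 1564, 1583 and 1586 in the vehicle controls and 1205, 1360 and 1298 under P4. The P4 cultures lay below all others. Of 17 genes tested, 0 were called higher against vehicle control, with a median log2 fold change of -0.14. The 8 called lower (47.1%) stood beside 27.8% of protein-coding genes. In the base, which holds the ATPases with PSMD1, PSMD2 and PSMD4, 5 of 9 were called lower at a median of -0.31. In the lid 3 of 8 were called lower at a median of -0.04. Whether these shares differ from each other or from the 27.8% was not tested.

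PSMD12, a lid subunit, had the lowest fold change of all proteasome genes, at -0.83 (SE 0.09, edgeR adjusted p = 8.8e-06). It measured 94.0, 73.3 and 97.8 normalised CPM in the controls, 82.7 and 72.8 in Nap only, 82.7, 97.6 and 87.2 in the vehicle controls and 47.0, 55.7 and 50.3 under P4. The vehicle controls were within the range of the controls, and their difference was 0.02 on the log2 scale (adjusted p = 0.881). PSMD2 and PSMD1, the large scaffold proteins of the base, were also called lower under P4 against vehicle control. PSMD2 measured 308, 272 and 279 in the controls, 286 and 260 in Nap only, 255, 263 and 273 in the vehicle controls and 166, 175 and 170 under P4, at -0.64 (SE 0.06, adjusted p = 3.4e-06). PSMD1 measured 216, 198 and 211 in the controls, 216 and 202 in Nap only, 192, 188 and 175 in the vehicle controls and 110, 131 and 123 under P4, at -0.62 (SE 0.07, adjusted p = 2.2e-05). For both, the vehicle control was not called against control, at -0.12 and -0.17 (edgeR adjusted p = 0.259 and 0.0838). The vehicle controls of PSMD1 nonetheless all lay below its controls, while those of PSMD2 overlapped its controls. Of the other lid genes, PSMD3 was called lower at -0.49 (adjusted p = 7.3e-05) and PSMD11 at -0.35 (adjusted p = 0.00166).

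Among the ATPases, PSMC5, PSMC3 and PSMC2 were called lower. PSMC5 measured 43.9, 39.6 and 36.8 in the controls, 37.7, 48.7 and 49.2 in the vehicle controls and 27.9, 35.0 and 33.9 under P4, at -0.52 against vehicle control (SE 0.12, edgeR adjusted p = 0.00229). Against Nap only, at 40.8 and 36.3, it was not called (-0.28, adjusted p = 0.0697). PSMC5 shares 10.6% of its 75-base windows with the overlapping gene FTSJ3, and the strand setting of the counting is not given in the sources used here. PSMC3 measured 132, 132 and 117 in the controls, 129 and 122 in Nap only, 113, 114 and 110 in the vehicle controls and 78.1, 87.7 and 83.0 under P4, at -0.45 (SE 0.07, adjusted p = 1.4e-04). PSMC2 measured 107, 102 and 106 in the controls, 112 and 97.8 in Nap only, 91.1, 83.5 and 89.1 in the vehicle controls and 70.7, 72.6 and 71.6 under P4, at -0.31 (SE 0.07, adjusted p = 0.00214).

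PSMC1 was the ATPase gene that went the other way, and did so when set against control or Nap only. It measured 6.56, 5.45 and 5.79 normalised CPM in the controls, 6.13 and 6.37 in Nap only, 9.95, 9.80 and 7.80 in the vehicle controls and 7.30, 10.3 and 9.68 under P4. P4 and vehicle control overlapped (-0.01, SE 0.16, edgeR adjusted p = 0.981), while it was called higher under P4 against control (0.60, adjusted p = 0.00684), under P4 against Nap only (0.52, adjusted p = 0.0390) and in vehicle control against control (0.61, adjusted p = 0.00847). The level is uncertain, because 83.2% of the windows of PSMC1 transcripts occur in other genes, and its 13 pseudogenes held 8210 counts against 1667 for PSMC1. The pseudogene PSMC1P1 was called lower, at -0.48 in P4 against control (adjusted p = 6.4e-04) and -0.37 in vehicle control against control (adjusted p = 0.00498). PSMC1 and its pseudogenes summed to 47.0 ± 2.49 in the controls (SD, n = 3), 47.7 ± 4.73 in Nap only (n = 2), 41.3 ± 3.56 in the vehicle controls and 39.1 ± 3.33 under P4 (n = 3 each). The means of the controls and Nap only were thus above those of the vehicle controls and P4, whereas for PSMC1 itself they were below.

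The remaining 19S genes were not called against vehicle control. PSMC4, an ATPase, measured 91.6, 83.3 and 79.0 in the controls, 85.0 and 77.4 in Nap only, 72.1, 71.6 and 77.7 in the vehicle controls and 70.8, 80.7 and 78.5 under P4 (0.04, edgeR adjusted p = 0.679). PSMC6, the other ATPase, measured 72.3, 69.0 and 78.7, then 79.4 and 67.3, then 67.0, 61.9 and 59.7, and 52.8, 61.6 and 57.6 in the same order of groups (-0.14, adjusted p = 0.166). In both the P4 cultures overlapped the vehicle controls.

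PSMD14, the deubiquitinase of the lid, measured 146, 140 and 154 in the controls, 154 and 137 in Nap only, 128, 116 and 124 in the vehicle controls and 116, 122 and 113 under P4 (-0.08, edgeR adjusted p = 0.344). Its partner PSMD7 measured 74.8, 80.0 and 75.4 in the controls, 73.9 and 75.6 in Nap only, 66.4, 68.1 and 69.6 in the vehicle controls and 62.7, 80.4 and 69.8 under P4 (0.05, adjusted p = 0.688). PSMD4, a ubiquitin receptor, measured 66.6, 67.1 and 58.8 in the controls, 70.3 and 62.1 in Nap only, 54.5, 59.9 and 56.1 in the vehicle controls and 52.4, 55.5 and 60.4 under P4 (-0.04, adjusted p = 0.717). In each of these 3 genes P4 and vehicle control overlapped.

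Among the other lid genes, PSMD8 measured 123, 126 and 108 in the controls, 123 and 109 in Nap only, 97.2, 96.9 and 99.4 in the vehicle controls and 96.4, 101 and 101 under P4 (0.01, edgeR adjusted p = 0.910). PSMD6 measured 76.3, 74.4 and 77.8 in the controls, 79.7 and 70.5 in Nap only, 62.6, 60.2 and 62.0 in the vehicle controls and 58.4, 78.0 and 68.2 under P4 (0.14, adjusted p = 0.247). PSMD13 measured 55.4, 54.7 and 53.4 in the controls, 59.8 and 51.8 in Nap only, 44.0, 49.6 and 47.4 in the vehicle controls and 48.8, 58.9 and 57.9 under P4 (0.21, adjusted p = 0.0628). In PSMD6 and PSMD13 the 2 higher P4 cultures were replicates 2 and 3, and P4 replicate 1 lay below the vehicle controls in PSMD6 and within them in PSMD13.

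**Figure D2:**
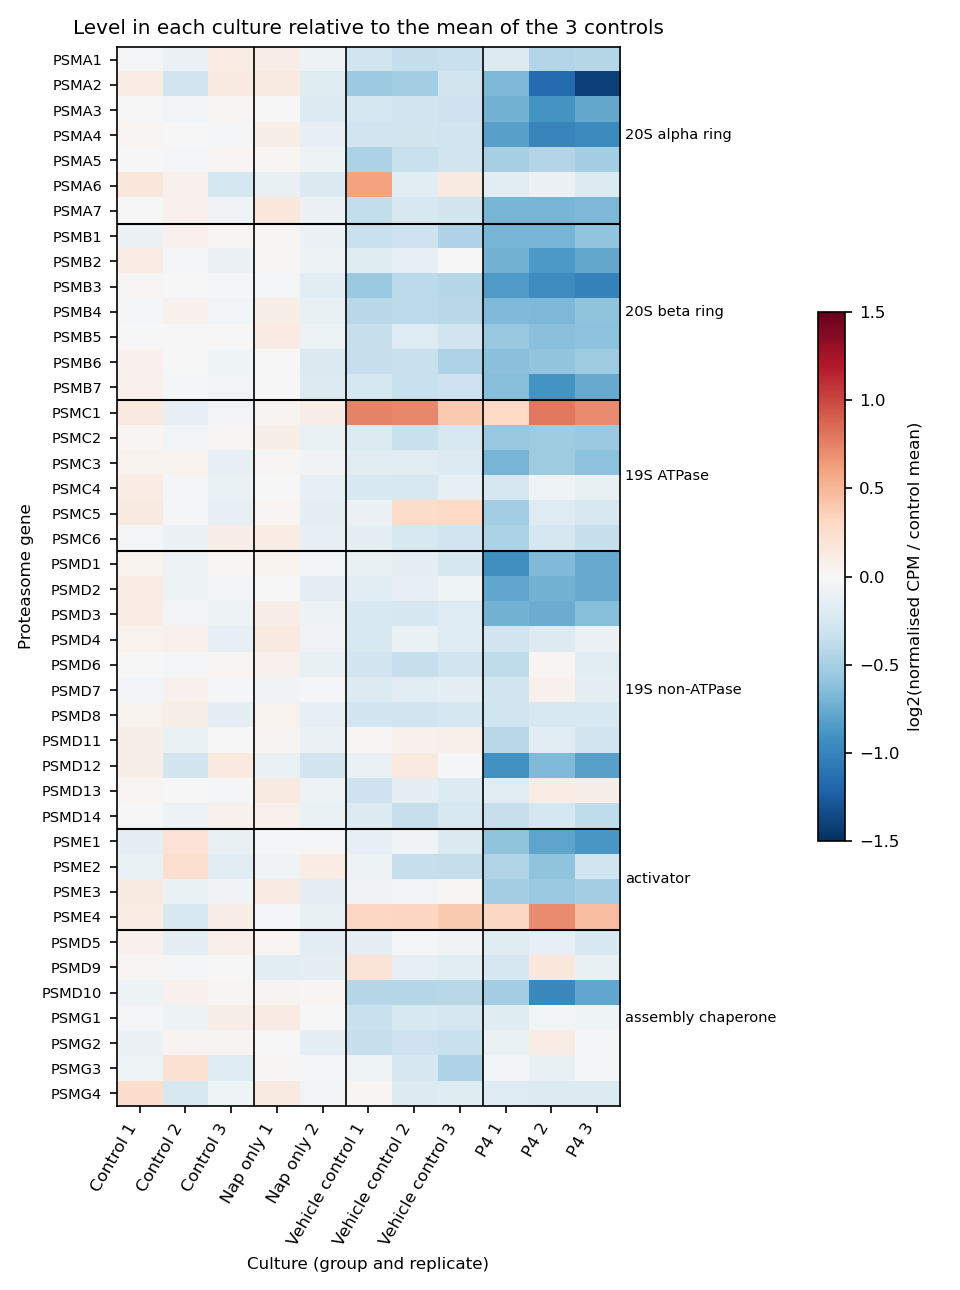
Level of the 42 tested proteasome genes (rows, by role) in each of the 11 labelled cultures (columns, by group and replicate) as log2 of the normalised CPM over the mean of the 3 controls, blue for lower and red for higher. Most 20S rows are blue in the vehicle controls and darker under P4, with PSMA1, PSMA6 and PSMB2 among the exceptions, PSMC1 and PSME4 are red in both groups, and most chaperone rows are pale.

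The activators were divided. PSME1, a subunit of the interferon-inducible cap, measured 29.5, 37.5 and 29.9 normalised CPM in the controls, 31.7 and 32.0 in Nap only, 29.7, 31.1 and 27.7 in the vehicle controls and 21.2, 18.6 and 17.7 under P4, at -0.64 against vehicle control (SE 0.10, edgeR adjusted p = 2.5e-04). PSME2, its partner in that cap and its neighbour on chromosome 14, measured 34.9, 44.2 and 33.3 in the controls, 36.0 and 40.3 in Nap only, 35.6, 29.5 and 29.2 in the vehicle controls and 27.4, 24.6 and 30.3 under P4 (-0.19, SE 0.11, adjusted p = 0.163), with overlap of the last 2 groups. PSME2 was called lower against control (-0.47, adjusted p = 0.00322) and Nap only (-0.50, adjusted p = 0.00428). PSME3, which forms a nuclear cap, measured 92.3, 78.6 and 81.3 in the controls, 91.4 and 76.0 in Nap only, 81.3, 81.7 and 84.8 in the vehicle controls and 59.1, 57.2 and 58.9 under P4, at -0.52 (SE 0.07, adjusted p = 4.6e-05).

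PSME4, a large single-chain cap, measured 142, 112 and 140 in the controls, 129 and 121 in Nap only, 162, 164 and 172 in the vehicle controls and 162, 215 and 180 under P4. All vehicle control and P4 cultures were above all controls, and P4 overlapped vehicle control. PSME4 was called higher in vehicle control against control (0.34, edgeR adjusted p = 0.00516), P4 against control (0.48, adjusted p = 0.00180) and P4 against Nap only (0.54, adjusted p = 0.00205), and not in P4 against vehicle control (0.15, SE 0.09, adjusted p = 0.186). With PSME4 the activators summed to 291 under P4 and 310 in the vehicle controls.

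Of the 7 assembly chaperones, 1 was called lower (14.3%) and 1 higher in P4 against vehicle control, with a median log2 fold change of -0.01. Of protein-coding genes, 27.8% were called lower and 30.4% higher. PSMG2, which helps to build the alpha ring, was the 1 proteasome gene called higher, at 0.31 (SE 0.09, edgeR adjusted p = 0.00930). It measured 36.0, 39.4 and 39.3 normalised CPM in the controls, 38.3 and 34.5 in Nap only, 30.0, 30.9 and 30.3 in the vehicle controls and 35.7, 41.4 and 37.6 under P4. The P4 cultures were thus in the range of the controls (-0.02, adjusted p = 0.872), and the vehicle controls were the low group (-0.33 against control, adjusted p = 0.00975). PSMG2 shares 10.2% of its windows with CEP76 and SPIRE1.

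PSMG1, which pairs with PSMG2, measured 46.5, 44.7 and 49.9 in the controls, 51.3 and 46.9 in Nap only, 37.3, 40.1 and 39.6 in the vehicle controls and 41.3, 45.7 and 44.9 under P4. Its P4 cultures lay above all vehicle controls without passing the test (0.15, SE 0.08, edgeR adjusted p = 0.131). PSMG3, which with PSMG4 acts in the same assembly pathway, measured 31.1, 38.1 and 28.5 in the controls, 32.9 and 32.2 in Nap only, 31.2, 27.3 and 23.7 in the vehicle controls and 31.6, 30.1 and 31.9 under P4 (0.20, SE 0.10, adjusted p = 0.127), and was called higher without vehicle control replicate 1, at 0.28. PSMG4, with 14.7, 10.3 and 11.7 in the controls, 13.4 and 11.9 in Nap only, 12.4, 10.6 and 10.8 in the vehicle controls and 10.7, 10.6 and 10.6 under P4 (-0.08, adjusted p = 0.643), was not called in any comparison.

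PSMD10, a chaperone of the 19S base also known as gankyrin, was the lower one, with 50.0, 55.2 and 53.5 in the controls, 54.5 and 54.0 in Nap only, 39.4, 39.2 and 39.8 in the vehicle controls and 37.1, 27.1 and 30.9 under P4. Its log2 fold change was -0.33 against vehicle control (SE 0.11, edgeR adjusted p = 0.0217) and -0.42 in vehicle control against control (adjusted p = 7.9e-04). The call against vehicle control was lost without any 1 vehicle control or without P4 replicate 2 or 3, with fold changes from -0.34 to -0.23. The other base chaperones, PSMD5 and PSMD9, were not called in any comparison. PSMD5 measured 75.1, 64.7 and 75.2 in the controls, 73.2 and 64.1 in Nap only, 64.5, 70.4 and 69.2 in the vehicle controls and 63.0, 65.7 and 61.2 under P4 (-0.12, adjusted p = 0.168). PSMD9 measured 16.8, 16.2 and 16.4 in the controls, 14.8 and 15.0 in Nap only, 18.9, 15.1 and 14.7 in the vehicle controls and 13.9, 18.4 and 15.3 under P4 (-0.01, adjusted p = 0.944).

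PSMC3IP, counted only by its name, was called lower as well. It measured 16.6, 16.8 and 15.0 normalised CPM in the controls, 14.6 and 16.6 in Nap only, 15.3, 15.2 and 15.8 in the vehicle controls and 11.7, 11.5 and 11.7 under P4, at -0.42 (SE 0.11, edgeR adjusted p = 0.00570), and 21.4% of its windows also occur in MLX.

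The other comparisons share cultures with the first and are set beside it. P4 against control called 29 of 43 genes lower and 2 higher at a median log2 fold change of -0.49, with a background of 28.5% of protein-coding genes lower and 30.2% higher. P4 against Nap only, groups that by the labels differ in P4, gave the same counts, 29 lower and 2 higher, at a median of -0.49, with a background of 25.5% lower and 28.8% higher. Vehicle control against control called 21 lower and 2 higher at a median of -0.23, with a background of 11.5% lower and 12.6% higher, and 14 lower without vehicle control replicate 2 or replicate 3. The medians over all genes were -0.02, -0.01 and -0.01. In each of these 3 comparisons the 2 genes called higher were PSMC1 and PSME4. The call for PSMC1 was lost in vehicle control against control without vehicle control replicate 2, and in P4 against Nap only without either Nap only culture or without P4 replicate 2 or 3, which left 1 gene called higher.

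**Figure D3:**
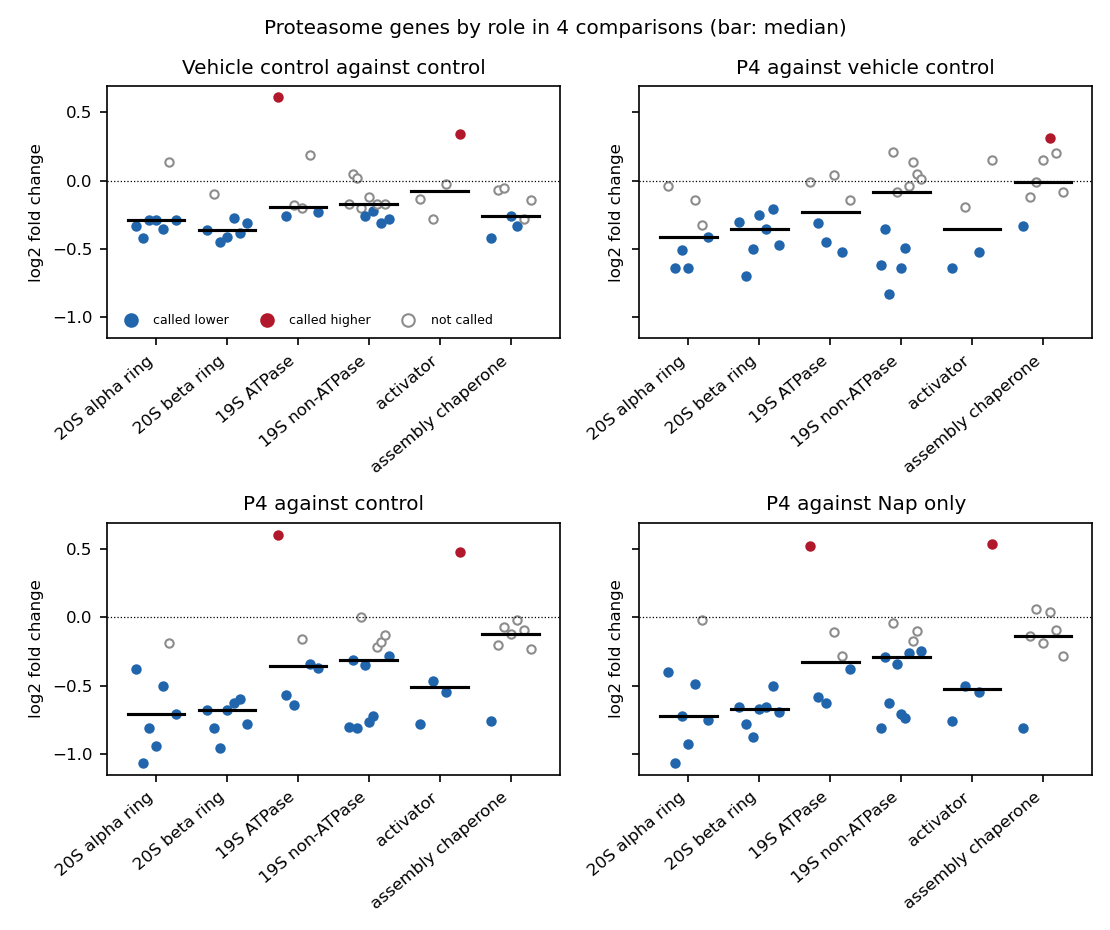
Log2 fold change (y axis) of each tested proteasome gene by role (x axis) in the 4 comparisons, 1 point a gene, filled where called, with a bar at the median of the role. The medians of the 20S rings lie from -0.41 to -0.29 in the upper panels and from -0.72 to -0.67 in both lower panels, where P4 is set against control and Nap only.

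The 22 genes called lower under P4 against all 3 reference groups divide by the vehicle control. For 13 of them, 30.2% of the members tested, the vehicle control was also called lower than control, a pattern held by 3.55% of protein-coding genes, and these were mostly core genes: PSMA2, PSMA3, PSMA4, PSMA7, PSMB1, PSMB3, PSMB4, PSMB5, PSMB6 and PSMB7, with PSMC2, PSMD3 and PSMD10. For the other 9 the vehicle control was not called: PSMB2, PSMC3, PSMD1, PSMD2, PSMD11, PSMD12, PSME1, PSME3 and PSMC3IP. The split rests on the threshold. In PSMC3 and PSMD1 all vehicle controls lay below all controls (-0.18 and -0.17, edgeR adjusted p = 0.0793 and 0.0838), while in the rest the groups overlapped. The calls in vehicle control against control also depended on single replicates, as given above. A further 6 genes, PSMA1, PSMA5, PSMC6, PSMD8, PSMD14 and PSME2, were called lower against control and Nap only and not against vehicle control. PSMD4 was called lower against Nap only alone, PSMC5 against vehicle control and control, and PSMD6 and PSMG1 in vehicle control against control alone. The 8 genes called in none of the 4 comparisons were PSMA6, PSMC4, PSMD5, PSMD7, PSMD9, PSMD13, PSMG3 and PSMG4. How many protein-coding genes held the patterns of the 9, 6 and 8 genes was not counted.

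In 29 of the 43 genes the group means ran in 1 order, with P4 lowest, vehicle control between and control highest. P4 had the lowest mean of the 4 groups in 31 genes and the highest in 2, and either control or Nap only had the highest in 36. These orders were not counted over all protein-coding genes, so whether they are particular to the members is not known. The largest log2 differences from control were those of PSMA2 (-1.07), PSMB3 (-0.96) and PSMA4 (-0.94), and the same genes were at -1.07, -0.88 and -0.93 against Nap only.

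**Figure D4:**
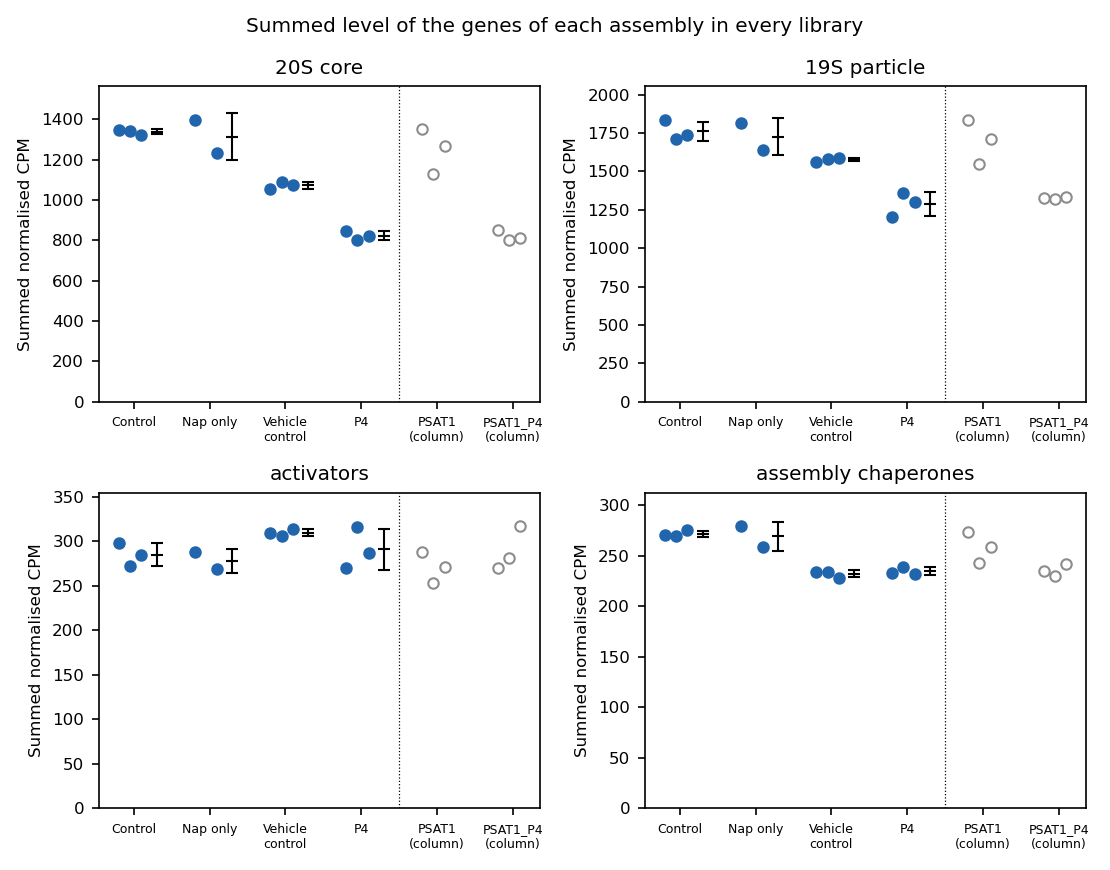
Summed normalised CPM (y axis, from 0) of the genes of the 20S core, the 19S particle, the activators and the assembly chaperones in every library (points), with the mean and SD of each labelled group beside them. P4 lies at 800 to 846 for the 20S core, below vehicle control at 1056 to 1090, while for the activators P4, at 270 to 316, overlaps every other group and the vehicle controls, at 306 to 314, lie above the controls, at 272 to 298. Open points are the 6 libraries with contradicting labels, by column name.

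Per length, the levels of subunits that stand in equal numbers in the particle were far apart. On the RPKM scale (normalised CPM divided by the length in kilobases of all exons of a gene in GENCODE 29), the core genes of the controls ran from 1.16 for PSMA6 and 4.04 for PSMA2 to 89.6 for PSMA7, with a median of 35.8. The median of the core was 29.1 in the vehicle controls, 33.4 in Nap only and 21.0 under P4. The 19S genes ran from 0.964 for PSMC1 and 8.35 for PSMD6 to 55.7 for PSMC3 in the controls. These values depend on the length used, which covers all annotated exons. It was 1750 bases for PSMA7, 6996 for PSMA4 and 9123 for PSMD6. PSMA4 had the highest control mean of the alpha ring before division by length, at 193 normalised CPM, and stood at 27.5 RPKM. How much of the spread comes from this length was not determined. The genes of lowest level per length in both particles, PSMA6 and PSMC1, were those with more counts in their pseudogenes than in the gene. The chromosomes with the most members were 14 and 17, with 8 each of the 46. On chromosome 17 all 8 were called lower under P4 against vehicle control (PSMB3, PSMB6, PSMC3IP, PSMC5, PSMD3, PSMD11, PSMD12 and PSME3), beside 33.8% of the protein-coding genes of that chromosome. Among these, PSMC3IP is a member by name only and its call was lost under DESeq2. The call for PSMB6 was lost under 7 of 13 alternatives. On chromosome 14 the members tested included PSMA3, PSMB5 and PSME1, called lower, and PSMA6, PSMC1, PSMC6 and PSME2, not called, beside 29.2% of protein-coding genes called lower.

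Other genes of the pathway, listed apart from the members, went in both directions. Of 31 tested genes for ubiquitin, its activating enzymes, shuttle factors, VCP and its cofactors, associated proteins and transcription factors of proteasome genes, 13 were called higher (41.9%) and 12 lower (38.7%) in P4 against vehicle control, beside 30.4% and 27.8% of protein-coding genes. The list holds 2 proteins of the 19S particle whose symbols fall outside the naming rule and which are not in the 19S counts above, SEM1 of the lid, called lower at -0.51 (adjusted p = 9.4e-04), and the ubiquitin receptor ADRM1, called lower at -0.27 (adjusted p = 0.0335). NFE2L1, the transcription factor of proteasome genes, measured 181, 183 and 172 normalised CPM in the controls, 163 and 178 in Nap only, 170, 177 and 171 in the vehicle controls and 265, 292 and 292 under P4. All P4 cultures were above all others, and NFE2L1 was higher at 0.70 against vehicle control (SE 0.06, edgeR adjusted p = 2.4e-06). NFE2L2, its relative that drives antioxidant genes, measured 82.5, 89.2 and 87.7 against 163, 215 and 184, at 1.10 (SE 0.09, adjusted p = 1.4e-06). SQSTM1, an autophagy receptor that binds ubiquitin, measured 181, 188 and 188 against 462, 738 and 674, at 1.73 (SE 0.14, adjusted p = 7.8e-06).

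Ubiquitin supply and the segregase were among the lower genes. UBB, a polyubiquitin gene, measured 274, 277 and 281 normalised CPM in the vehicle controls and 163, 131 and 142 under P4, at -0.95 (SE 0.08, edgeR adjusted p = 1.4e-06). VCP, the ATPase that extracts ubiquitin-tagged proteins for the proteasome, measured 246, 254 and 260 against 139, 156 and 152, at -0.78 (SE 0.06, adjusted p = 1.2e-06). UBA1, the main ubiquitin-activating enzyme, measured 232, 240 and 251 against 151, 156 and 150, at -0.68 (SE 0.06, adjusted p = 2.5e-06). In all 3 genes the groups did not overlap. POMP, the chaperone that matures the core, measured 62.7, 58.7 and 64.8 in the controls, 44.2, 47.4 and 45.8 in the vehicle controls and 42.7, 39.4 and 37.8 under P4, at -0.22 against vehicle control (SE 0.08, adjusted p = 0.0423) and -0.43 in vehicle control against control (adjusted p = 5.2e-04). In vehicle control against control, 2 of the 31 related genes were called higher and 5 lower, beside 12.6% and 11.5% of protein-coding genes.

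**Figure D5:**
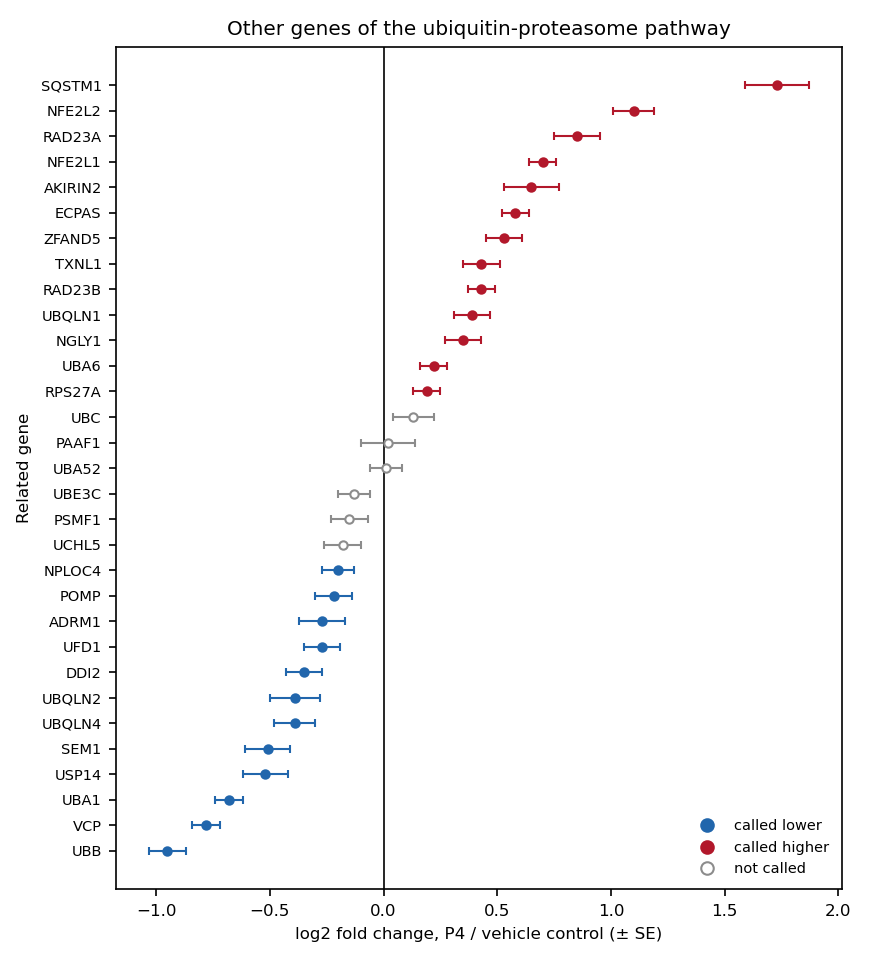
Log2 fold change, P4 against vehicle control (x axis, error bars are the standard error, 3 cultures a group), of the 31 tested related genes of the ubiquitin-proteasome pathway (y axis), filled where called. SQSTM1 lies farthest to the right at 1.73, NFE2L2 and NFE2L1 at 1.10 and 0.70, and UBB farthest to the left at -0.95.

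In the 6 libraries with contradicting labels, the summed level of the 46 genes was 3196 to 3766 normalised CPM in the 3 columns named PSAT1 and 2644 to 2711 in the 3 columns named PSAT1_P4. The labelled controls ran from 3613 to 3767 and the labelled P4 cultures from 2565 to 2726.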

How the data were processed

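Per the study's methods, the authors took single-end 75-base reads of stranded total RNA libraries through Cutadapt and a quality filter, kept reads that Subread placed uniquely on the GENCODE release 31 genome, and summarised them per gene by featureCounts. The authors deposited raw counts of 60662 genes, which are not normalised. The strand setting and tool versions are not given in the sources used here. Gene names came from GENCODE 29, which held 58542 of the identifiers (2054 more were named from a table of names and 21 had none).

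Counts were tested with edgeR 4.0.16 (quasi-likelihood, robust, TMM, filterByExpr with a minimum count of 10, R 4.3.3), fitted on all genes with only the 2 groups compared, and adjusted by Benjamini-Hochberg at 0.05. Standard errors are the fold change over the root of its F statistic. The study itself used DESeq2 (1.42.0 here, as an alternative). Plotted levels are CPM scaled by TMM factors over all 17 libraries. Data were simulated for P4 against vehicle control with 16496 genes and a dispersion of 0.02, above the 0.00635 fitted to the real cultures. There, 5 of 73 genes changed by 0.5 (log2) were recovered, 57 of 63 changed by 1 and 64 of 64 changed by 2. At this larger dispersion the recovery need not be that of the real data. The chi-square between replicates was 1.48 to 18.3 per degree of freedom, so each library counted as 1 sample. Members, roles and related genes were chosen with earlier results of these data known. Values in every culture are given for the 3 members of largest fold change in each role and for each member not called or called the other way (for PSMA2 in Nap only, as a mean); related genes are named for the 3 smallest adjusted p in each direction, plus POMP, NFE2L1, PSMB8 and PSMB9. Libraries with contradicting labels entered no test. Alternatives were DESeq2, RLE and upper-quartile scaling, 2 other filters on low counts, all 4 groups in 1 fit, the replicate number as a block, and leaving out each replicate.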

Additional observations from a re-analysis of the deposited data

Results flagged for a closer look

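Both genes below lay above every control in the 3 columns named PSAT1_P4. These libraries enter no comparison, because their title and column name contradict each other on whether P4 was present. Of 12866 protein-coding genes, 36.8% lay above the controls in these columns, as did 2 of the 43 members tested. In the 3 columns named PSAT1_P4, PSMC1 was at 9.03 normalised CPM in the lowest library and 10.4 in the highest, above the highest control culture at 6.56. PSME4 was at 165 in the lowest and 215 in the highest of the same 3 libraries, above the highest control culture at 142. In the 3 columns named PSAT1 the same genes overlapped the controls, at 5.59 to 6.11 for PSMC1 and 114 to 129 for PSME4. No test was made, and the shared windows and pseudogenes given for PSMC1 in the report apply here too.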

How the results depend on the processing

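No called result changed direction under these alternatives. Of the members not called in P4 against vehicle control, 7 near 0 changed sign in some settings (PSMA1, PSMC1, PSMC4, PSMD4, PSMD7, PSMD8 and PSMD9). In P4 against vehicle control, the 23 genes called lower became 20 under DESeq2 and 27 with upper-quartile scaling. Of the 23, 20 passed under every alternative, PSMB6 and PSMD10 failed under DESeq2 and without several single replicates, PSMB6 also without a count filter (-0.19) and with all 4 groups in the fit (-0.20), and PSMC3IP failed under DESeq2. The median of -0.30 was -0.23 under DESeq2 and without a filter (both over more genes), and -0.39 with upper-quartile scaling, which moved the median of all genes to -0.10, so that the members stood -0.29 from it under either scaling and -0.15 under DESeq2, over the 32920 genes it tested. Upper-quartile scaling lowered the share of higher calls among all calls from 50.1% to 40.7%. The number called higher was 2 with all 4 groups in the fit. In P4 against control the median was -0.56 with upper-quartile scaling. In P4 against Nap only the number called higher was 1 under DESeq2 and with upper-quartile scaling.

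Leaving out 1 replicate gave 21 to 23 lower, 1 to 5 higher and medians of -0.30 to -0.23 in P4 against vehicle control, 26 to 30, 2 and -0.54 to -0.47 in P4 against control, 23 to 30, 1 to 2 and -0.49 to -0.41 in P4 against Nap only, and 14 to 23, 1 to 3 and -0.24 to -0.22 in vehicle control against control. Where 1 Nap only culture was left, it was assumed to vary like the P4 group. The causes of these shifts were not tested.

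Same-numbered P4 and vehicle control libraries had deviations that correlated at -0.0429 to 0.0512 over genes, and differently numbered ones at -0.0875 to 0.0644. In vehicle control against control the mean correlation was 0.0419 for same numbers and -0.0214 for different numbers. It was -0.0737 and 0.0366 in P4 against control, and -0.0738 and 0.0369 in P4 against Nap only. So few cultures a group cannot tell whether same-numbered cultures belonged together. With the replicate block, P4 against vehicle control gave 23 lower and 2 higher, and P4 against Nap only 23 lower and 1 higher, and it gave 29 lower in P4 against control and 23 in vehicle control against control.

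Vehicle control replicate 1 had the fewest counts, and members of low count, such as PSMA6, PSMC1 and PSMG4, rest on few reads there. On data simulated with a dispersion of 0.02, above the 0.00635 fitted for P4 against vehicle control, 5 of 73 genes changed by 0.5 (log2) were recovered. Members not called are not shown to be unchanged.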

Other observations

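Read by column name alone, the 20S core summed to 1131 to 1352 normalised CPM in the 3 columns named PSAT1 and to 800 to 854 in the 3 named PSAT1_P4, and the 19S particle to 1551 to 1836 and 1322 to 1331. All proteasome genes together took 0.352% to 0.390% of the counts in the former and 0.243% to 0.247% in the latter. Set against the range of the labelled controls, 38 of the 43 tested genes overlapped it and 5 lay below it in the columns named PSAT1, while 30 lay below it, 2 above it and 11 overlapped it in the columns named PSAT1_P4. Of 12866 protein-coding genes, 7% lay below and 3.79% above the controls in the former columns, and 31.5% below and 36.8% above in the latter. Set against the range of the labelled P4 cultures, 39 of 43 overlapped it in the columns named PSAT1_P4 and 31 lay above it in those named PSAT1, beside 94.3% and 30.7% of protein-coding genes. Which of these libraries received P4 cannot be told from the labels.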
